A study of Canis lupus familiaris with 7 samples.

Results

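Collagen chain genes were taken as every row of the FPKM table whose whole symbol was COL, a number, A and a number, which gave 43 of 24580 genes and 28 collagen types. FPKM are fragments scaled to transcript length and to the number of mapped fragments, so levels of different chains can be set side by side. The samples were 4 pieces of grossly non-malignant bone (N1, N3, N8 and N9, the non-tumor group) and 3 osteosarcomas (T1, T3 and T10, the OSA tumor group), all from dogs treated by amputation or sampled straight after euthanasia. The non-tumor bone lay next to a tumor, so it is tissue of diseased dogs, and no allele or experimental treatment separates the groups. The sources used here give neither breed, sex nor age for these samples. The study calls the bone matched to tumor, but neither it nor the labels say that equal numbers, as in N1 and T1 or N3 and T3, mark 1 dog. The chains were sorted into fibrillar (8 rows), cartilage type (7), FACIT (7), basement membrane (9), short chain (2), beaded filament (4), transmembrane (4) and other (2) collagens. The partner chain *COL6A2* was not analysed here.

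Collagens are built from alpha chains that wind around each other in a helix of repeated glycine triplets. Fibrillar collagens form the banded fibrils of bone, skin and tendon, and collagen I is the main protein of bone matrix. Cartilage fibrils hold collagens II, IX and XI, and hypertrophic cartilage adds collagen X. FACIT collagens sit on the surface of fibrils, collagen IV forms the sheet of basement membranes, and collagen VI forms beaded microfibrils around cells. Several of these molecules need more than 1 gene product, so partner chains are often described together.

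The 7 libraries did not fall into 2 tight groups, and this touches every comparison of the chains. N1 and T1 were the most alike of the 21 pairs, with a Pearson correlation across the tested genes of 0.917 in log2(FPKM + 1), against at most 0.812 for any other pair. Genes of an osteoblast list summed to between 118 FPKM (N8) and 1907 FPKM (N1) in non-tumor samples and between 1100 FPKM (T10) and 4041 FPKM (T1) in OSA tumor. Skeletal muscle genes summed to 92.1, 1313, 108696 and 79123 FPKM (N1, N3, N8, N9), and to at most 22.5 FPKM in any OSA tumor. Erythroid genes summed to 7.11 FPKM in N1 and to between 190 and 4458 FPKM in the other non-tumor samples. In bulk tissue, fewer cells of a type and less RNA per cell cannot be told apart. The table holds no counts. Steps between the lowest FPKM values put the fragments behind a given FPKM, relative to N1, at between 0.544 (N8) and 1.44 (T10).

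The summed level of all collagen chains varied widely within each group. It was 18989, 973, 226 and 452 FPKM (N1, N3, N8, N9), against 15954, 1352 and 4043 (T1, T3, T10). As a share of all FPKM in a sample, collagen chains made up 3.52% of N1, 0.141% of N3, 0.0129% of N8 and 0.0345% of N9. The corresponding shares were 1.43%, 0.150% and 0.694% (T1, T3, T10). N1 held the highest share with all values as deposited, and the groups overlapped. The mean share of the 4 non-tumor samples was 0.927% ± 1.73 (SD, n = 4), and that of OSA tumor was 0.757% ± 0.640 (SD, n = 3), a difference smaller than the spread within either group. A single feature, ENSCAFG00000030140, held 47.3% of the FPKM of T1, and without it the share of collagen in T1 was 2.70%. *COL1A1* was listed at 0 in T1, and without this chain the sum was 10380 FPKM in N1 and 15954 FPKM in T1. The share was then 1.92% in N1 and 1.43% in T1. With ENSCAFG00000030140 also left out of both samples it was 2.17% and 2.70%, so the order of N1 and T1 depends on these entries. Chains at 100 FPKM or more numbered 12 in N1 and 14 in T1, but 4 in T3, 5 in T10, 2 in N3, 1 in N9 and 0 in N8.

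**Figure D1:**
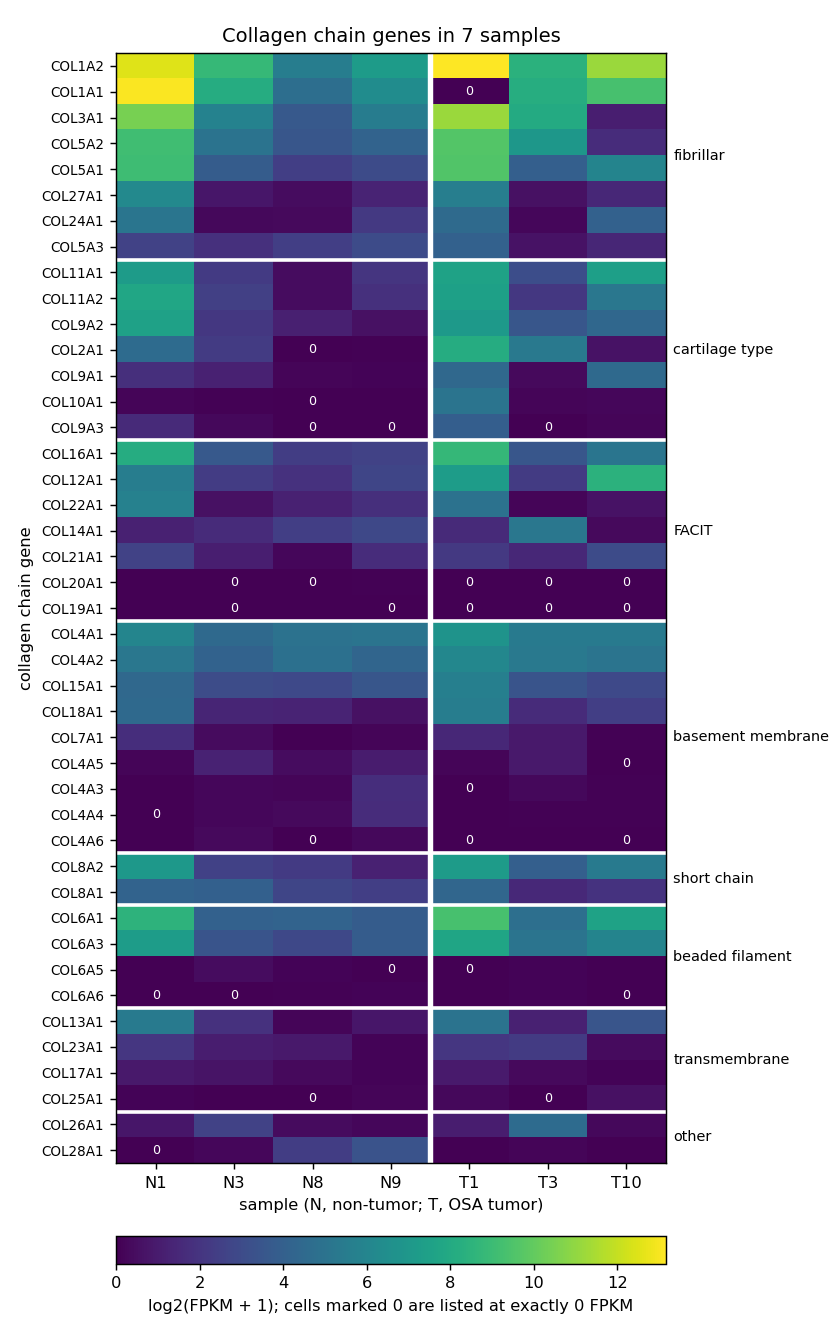
Level of each of the 43 collagen chain genes (rows, grouped by class) in the 7 samples (columns), as log2(FPKM + 1) on the color scale. Cells marked 0 are listed at exactly 0 FPKM. N1 and T1 are bright in many of the same rows, *COL1A1* is listed at 0 in T1, *COL10A1* is at 32.5 FPKM in T1 and 0.125 FPKM in N1, and T10 is dark at *COL3A1* and *COL5A2*.

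To compare the groups, log2(FPKM + 1) was fitted with limma over the 13507 genes whose mean reached 1 FPKM, and the rule for a call asked for a log2 fold change of 1 or more in size together with p under 0.05 before adjustment. Of the 43 chains, 32 passed the filter on low values. None of the 32 was called higher, where 3.28% of all tested genes were, and none was called lower, where 3.58% of all tested genes were (6.86% in either direction). An unadjusted p under 0.05 was reached by 0 chains, against 6.86% of all tested genes, and the smallest, 0.051 from limma, belonged to *COL9A1*. The smallest Benjamini-Hochberg adjusted p of a chain was 0.693, and 0 of all tested genes had an adjusted p under 0.05. The log2 fold change was above 0 in 27 of the 32 chains (84.4%, against 48.6% of all tested genes) and at least 1 in 15 (46.9%, against 9.76%). It was -1 or less in 2 chains, against 13.6% of all tested genes, and at least 1 in size in 17, against 23.4%. Its median was 0.97 over the chains and -0.02 over all tested genes. The standard errors were wide: their median was 1.29 for the chains and 0.607 for all tested genes. In 0 of the 32 chains did the groups separate with OSA tumor higher or lower, where 3.04% and 2.81% of all tested genes did.

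Without N1, 13 of the 32 chains (40.6%) were called higher in OSA tumor, against 6.31% of all tested genes in the same fit, and 1 was called lower, against 8.48%. The 13 were *COL1A2* and *COL5A1* of the fibrillar class, *COL2A1*, *COL9A1*, *COL9A2*, *COL11A1* and *COL11A2* of the cartilage type, the FACIT chains *COL12A1* and *COL16A1*, *COL6A1* and *COL6A3*, *COL8A2* and *COL13A1*. Their log2 fold changes in that fit ran from 2.27 (*COL13A1*) to 4.47 (*COL11A1*), and the chain called lower was *COL28A1* at -1.93. The smallest adjusted p among the chains was 0.126. OSA tumor lay above all 3 remaining non-tumor samples in 10 chains (31.2%), against 9.72% of all tested genes, and below them in 1, against 9.31%. Without both N1 and T1, 5 chains were called higher (*COL6A1*, *COL6A3*, *COL8A2*, *COL9A2* and *COL11A1*; 15.6%, against 6.72% of all tested genes) and *COL5A3* lower (3.12%, against 7.3%). Leaving out T3 gave 4 chains called higher (*COL6A1*, *COL9A1*, *COL11A1* and *COL12A1*; 12.5%, against 3.07%). The count was 1 higher without T10 (*COL2A1*; 3.12%, against 2.21%) and 2 lower without T1 (*COL5A3* and *COL8A1*; 6.25%, against 4.46%), both near the share of all tested genes. N1 was the highest non-tumor sample in 28 of the 32 chains and at least 5 times the next one in 20. In 19 chains N1 and T1 were the top pair of all 7 samples. The part of the muscle and erythroid genes, which were low in N1 and high in N8, in these differences was not tested.

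**Figure D2:**
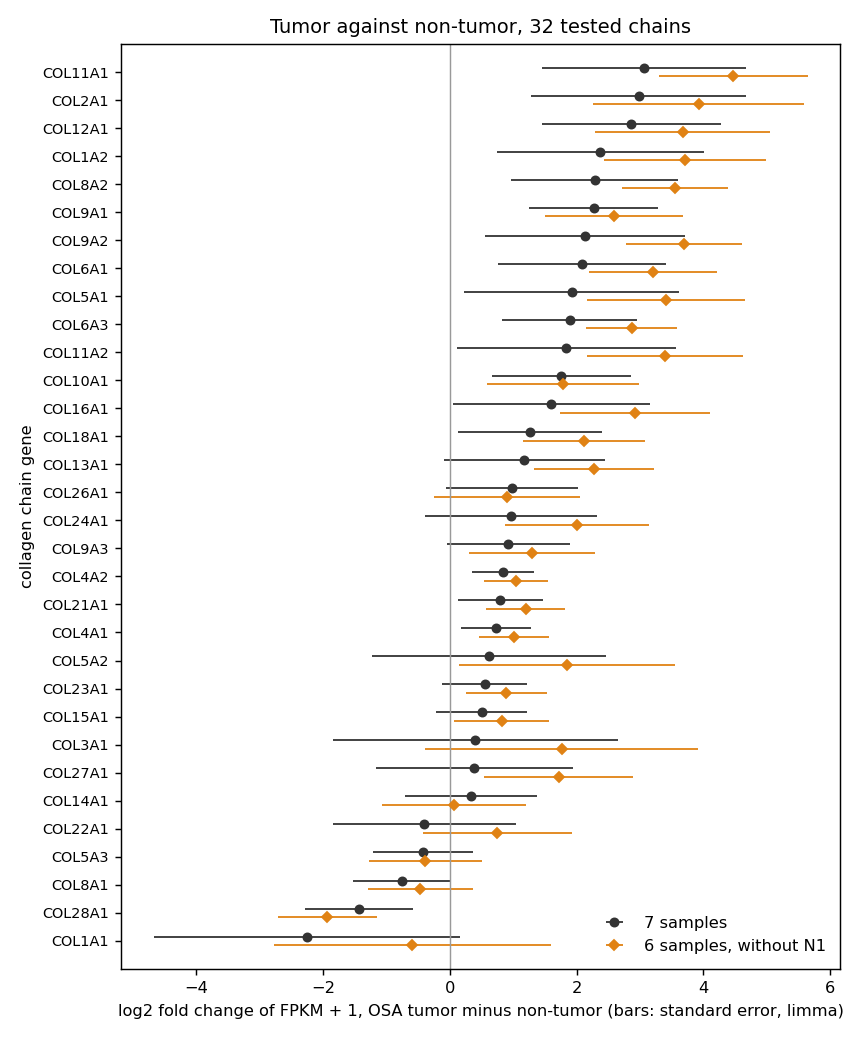
Log2 fold change (OSA tumor minus non-tumor, horizontal axis) with its standard error from limma for the 32 tested chains (vertical axis), with all 7 samples (circles) and with the 6 samples without N1 (diamonds). With 7 samples the chains range from -2.25 (*COL1A1*) to 3.06 (*COL11A1*), and most move to the right without N1.

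Collagen I, the fibril collagen of bone, is assembled from *COL1A1* and *COL1A2*. *COL1A2* (ENSCAFG00000002069, CanFam3.1 chromosome 14 from 19883733 to 19920718) was at 5931, 450, 46.9 and 148 FPKM (N1, N3, N8, N9), and at 9139, 342 and 2285 (T1, T3, T10). It was the most abundant chain in 6 of the 7 samples, T3 was below N3, and the groups overlapped (1644 ± 2863 FPKM, SD, n = 4, against 3922 ± 4621 FPKM, SD, n = 3). The log2 fold change was 2.37 (standard error 1.63, limma, unadjusted p = 0.178; two-sided exact permutation test, p = 0.343). *COL1A1* (ENSCAFG00000017018, chromosome 9 from 26183852 to 26199927) was at 8610, 278, 26.2 and 84.1 FPKM (N1, N3, N8, N9). In OSA tumor it was at 289 FPKM in T3 and 652 in T10 and was listed at 0 in T1, the sample with the highest *COL1A2*. A value of exactly 0 in this table can be a failed estimate, so the log2 fold change of -2.25 (standard error 2.42) rests on that entry. With the T1 value set to missing, a fit in which *COL1A1* had 6 samples, it was 0.67 (standard error 1.97). The ratio of *COL1A1* to *COL1A2* was 0.617 in N3, 0.559 in N8 and 0.567 in N9, close to each other although the levels of *COL1A2* ran from 46.9 to 450 FPKM. It stood at 1.45 in N1, 0.845 in T3 and 0.285 in T10. Values listed at 0 made up 30 of the 301 values of the 43 chains, and 7 of them were in tested chains.

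Collagen III, the fibril collagen of vessel walls and loose connective tissue, and collagen V, which sets fibril diameter, differed widely between tumors. *COL3A1* (ENSCAFG00000014812, chromosome 36 from 30487822 to 30526563) was at 2353 FPKM in T1 and 267 in T3, but at 1.14 in T10. In non-tumor samples it was at 1420, 55.4, 11.95 and 45.9 FPKM (N1, N3, N8, N9), so T10 was the lowest of all samples. *COL5A2* (ENSCAFG00000014837, chromosome 36 from 30537639 to 30677658) starts 11075 bases beyond the end of *COL3A1* and had the same order: 793, 125 and 2.16 FPKM (T1, T3, T10), against 565, 31.8, 10.3 and 17.2 (N1, N3, N8, N9). T10 was again the lowest sample of all, although its *COL1A2* was the third highest. *COL5A1* (ENSCAFG00000019848, chromosome 9 from 50741552 to 50856744), the partner of *COL5A2*, was at 60.5 FPKM in T10, 763 in T1 and 14.9 in T3, and at 530, 13.1, 4.40 and 7.15 (N1, N3, N8, N9). Its level in T10 was thus the third highest of the series. The ratio of *COL5A1* to *COL5A2* was 28.0 in T10 and between 0.120 and 0.962 in the other 6 samples. The ratio of *COL3A1* to *COL1A2* was 4.97e-04 in T10 and between 0.123 and 0.779 elsewhere. *GULP1* (chromosome 36 from 30108886 to 30250892), an engulfment adaptor on the other side of *COL3A1* that was picked after its values were seen, was at 52.3 FPKM in T10, its highest level, and between 3.44 and 22.5 FPKM in the other samples. By limma the log2 fold change was 0.40 for *COL3A1* (standard error 2.25), 0.62 for *COL5A2* (standard error 1.85) and 1.92 for *COL5A1* (standard error 1.70). Without T10 it was 3.25 for *COL3A1* and 2.84 for *COL5A2*, still not called. Without T1 the values were -1.80 and -1.15. For *COL5A1* the log2 fold change ran from 0.38 without T1, not called, to 3.41 without N1, called.

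**Figure D3:**
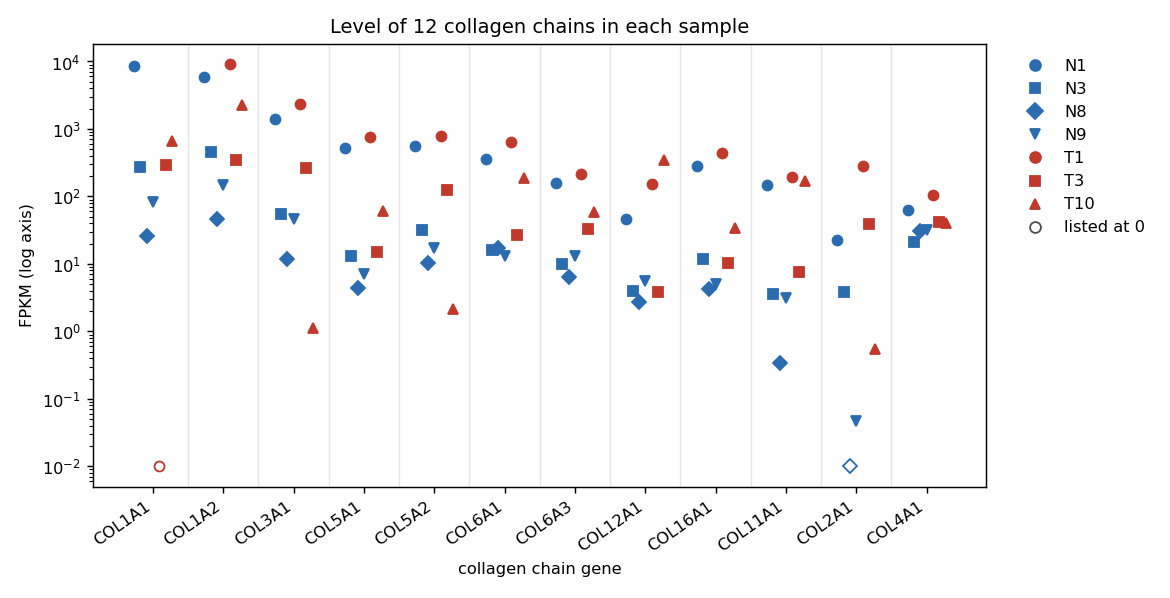
FPKM (logarithmic axis) of selected collagen chains in each sample, non-tumor in blue and OSA tumor in red, with 1 point per sample. Open symbols, drawn at the bottom of the axis, are listed at 0. N1 (blue circle) lies with T1 (red circle) at the top of most chains, and T10 (red triangle) is the lowest sample for *COL3A1* and *COL5A2* and the highest for *COL12A1*.

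The remaining fibrillar chains were lower. *COL5A3*, the third chain of collagen V, was between 2.52 and 6.96 FPKM in non-tumor samples and at 15.9, 0.542 and 1.66 (T1, T3, T10). *COL24A1* and *COL27A1*, which are expressed in developing bone and cartilage, showed the pattern of N1 and T1. *COL24A1* was at 34.0 FPKM in N1, 22.1 in T1 and 16.2 in T10 and at most 3.52 in the other 4 samples. *COL27A1* was at 71.1 FPKM in N1 and 47.6 in T1 and at most 1.80 in the other 5. T1 was thus below N1 in both chains.

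All 7 cartilage type chains had a log2 fold change above 0, with a median of 2.13, and none was called in the fit of the 7 samples as deposited. With the FPKM rescaled to the same sum or with sample weights, *COL9A1* and *COL11A1* were called higher, and *COL9A1* was also called with quantile normalization and when 3 samples had to reach 1 FPKM. Aggrecan (*ACAN*) and *HAPLN1*, which build the cartilage proteoglycan network, and the cartilage regulator *SOX9* were called higher, 3 of the 6 tested genes of a chondrocyte list (50.0%, against 3.28% of all tested genes). The other 3 were not called: the log2 fold change was 0.70 for *COMP*, a cartilage matrix protein, -1.56 for *LECT1*, chondromodulin, and -0.81 for the cartilage regulator *SOX6*. The list summed to between 20.1 and 99.0 FPKM in non-tumor samples and to 405, 98.2 and 374 FPKM (T1, T3, T10). Among its members under the filter, *MATN1* did not exceed 0.209 FPKM, and *SOX5* and *EPYC* stayed below 1 FPKM in every sample. *MATN3* was at 0.964, 1.65 and 2.34 FPKM (T1, T3, T10) and at most 0.542 FPKM in non-tumor samples. *COL11A1* (ENSCAFG00000019985, chromosome 6 from 47425307 to 47622225) was at 193, 7.53 and 169 FPKM (T1, T3, T10). It was at 148, 3.63, 0.343 and 3.11 FPKM (N1, N3, N8, N9), so all OSA tumors exceeded N3, N8 and N9 but T3 fell below N1. Its log2 fold change of 3.06 was the highest of the chains (standard error 1.61, limma, unadjusted p = 0.0879; two-sided exact permutation test, p = 0.114). *COL11A2* (ENSCAFG00000000903, chromosome 12 from 2626822 to 2655698) was at 180, 3.41 and 36.6 FPKM (T1, T3, T10), and at 217, 4.54, 0.334 and 2.51 (N1, N3, N8, N9). T3 was below N3 here, and the log2 fold change was 1.84 (standard error 1.73). This value ran from 0.57 without T1, not called, to 3.39 without N1, called. The ratio of *COL11A1* to *COL11A2* was 4.61 in T10 and 2.21 in T3, and between 0.681 and 1.24 in the other 5 samples.

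*COL2A1* (ENSCAFG00000009059, chromosome 27 from 6756994 to 6787846), the main fibril chain of cartilage, was at 286 FPKM in T1 and 39.5 in T3 but at 0.547 in T10. In non-tumor samples it was at 22.9 FPKM in N1, 3.89 in N3 and 0.0477 in N9, and was listed at 0 in N8. The log2 fold change was 2.98 (standard error 1.69, limma, unadjusted p = 0.111), and with 1 sample left out it ran from 1.25 without T1, not called, to 5.02 without T10, called. T10 had abundant *COL11A1* with little *COL2A1*, a ratio of *COL2A1* to *COL11A1* of 0.00324, against 1.49 in T1 and 5.24 in T3. This ratio was 0.155 in N1, 1.07 in N3 and 0.0153 in N9, and *COL2A1* was listed at 0 in N8. *COL10A1*, the collagen of hypertrophic cartilage, was at 32.5 FPKM in T1 and at most 0.191 FPKM in the other samples, so its log2 fold change of 1.76 rested on T1. Its interval also covers another listed gene.

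Collagen IX coats cartilage fibrils and is made from *COL9A1*, *COL9A2* and *COL9A3*. *COL9A1* (ENSCAFG00000002589, chromosome 12 from 32763693 to 32847276) was at 20.9 FPKM in T1 and 21.5 in T10 but at 0.248 in T3. Non-tumor samples were at 2.46, 1.30, 0.125 and 0.0777 FPKM (N1, N3, N8, N9), so T1 and T10 stood above all of them and T3 did not. The log2 fold change was 2.27 (standard error 1.01; two-sided exact permutation test, p = 0.171). *COL9A2* was at 134, 10.5 and 19.9 FPKM (T1, T3, T10), against 184, 3.44, 1.22 and 0.532 (N1, N3, N8, N9). The ratio of *COL9A1* to *COL9A2* ran from 0.0134 in N1 to 1.08 in T10. *COL9A3* was listed at 0 in T3, beside *COL9A2* at 10.5 FPKM, and also in N8 and N9, where *COL9A2* was lower. Elsewhere it was at 14.5 FPKM in T1, 0.145 in T10, 1.98 in N1 and 0.208 in N3. Among the chains of collagens I, IV, V, VIII, IX and XI and the chains *COL6A1* and *COL6A3*, those listed at 0 beside a partner of the same triple helix at 10 FPKM or more were *COL1A1* in T1 and *COL9A3* in T3. *COL6A5* and *COL6A6*, both under the filter, were not counted as partners of *COL6A1*, nor *COL4A3* to *COL4A6* as partners of *COL4A1*.

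**Figure D4:**
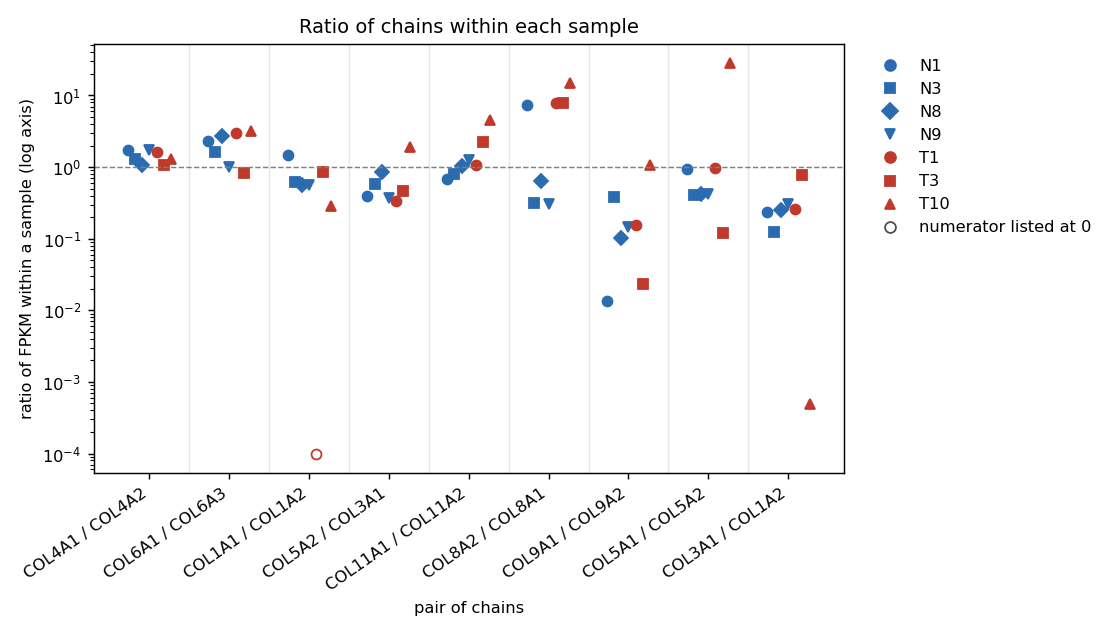
Ratio of the FPKM of pairs of chains within each sample (logarithmic axis), non-tumor in blue and OSA tumor in red, with the dashed line at 1. The *COL4A1* to *COL4A2* ratio stays between 1.08 and 1.74, while T10 stands apart for *COL5A1* to *COL5A2* and *COL3A1* to *COL1A2*. The open symbol, drawn at the bottom of the axis, is *COL1A1* listed at 0 in T1.

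Among FACIT collagens, *COL12A1* (ENSCAFG00000002702, chromosome 12 from 36722874 to 36838616), which binds to collagen I fibrils in dense connective tissue, was at 346 FPKM in T10, 153 in T1 and 3.84 in T3. Non-tumor samples were at 46.2, 4.03, 2.71 and 5.68 FPKM (N1, N3, N8, N9), so T3 lay inside the range of the non-tumor group. The log2 fold change was 2.86 (standard error 1.41, limma, unadjusted p = 0.0725; two-sided exact permutation test, p = 0.229). This value ran from 1.64 without T10, not called, to 4.72 without T3, called, and it was also called without N1, with the FPKM rescaled to the same sum and with sample weights. *COL16A1* (ENSCAFG00000010930, chromosome 2 from 69410159 to 69459246) was at 436, 10.5 and 33.9 FPKM (T1, T3, T10), against 285, 11.8, 4.26 and 5.02 (N1, N3, N8, N9). T10 was the highest sample for *COL12A1* and the third highest for *COL16A1*. The ratio of *COL16A1* to *COL12A1* was 0.0980 in T10 and between 0.884 and 6.16 elsewhere. *COL14A1*, a FACIT chain of tendon and skin, was highest in T3 at 36.2 FPKM and between 0.254 and 6.21 FPKM in the other 6 samples. *COL22A1*, a chain of tissue junctions, was at 54.3 FPKM in N1 and 30.4 in T1 and at most 2.36 in the rest. *COL21A1* lay between 0.194 and 7.02 FPKM, and *COL19A1* and *COL20A1* did not exceed 0.0434 FPKM in any sample.

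Collagen VI makes the beaded filaments of the matrix around cells. *COL6A1* (ENSCAFG00000011911), 1 of 10 listed genes in an interval (chromosome 31, 38875634 to 39464510), was at 647, 27.0 and 189 FPKM (T1, T3, T10). It was at 361, 16.3, 17.0 and 13.02 FPKM (N1, N3, N8, N9). *COL6A3* (ENSCAFG00000012226, chromosome 25 from 47970980 to 48052402) was at 213, 32.4 and 59.4 FPKM (T1, T3, T10), against 156, 9.88, 6.30 and 12.99 (N1, N3, N8, N9). In both chains every OSA tumor was above N3, N8 and N9, and N1 was above T3 and T10. The log2 fold changes were 2.09 (standard error 1.33) and 1.89 (standard error 1.07). The ratio of *COL6A1* to *COL6A3* stayed between 0.833 and 3.18. *COL6A5* and *COL6A6* reached at most 0.340 FPKM.

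Of the basement membrane chains, *COL4A1* and *COL4A2* form the collagen IV found under most endothelium and epithelium, and they varied least among the abundant chains. *COL4A1* (ENSCAFG00000006062, chromosome 22 from 58512484 to 58588734) was at 106, 42.1 and 40.9 FPKM (T1, T3, T10), and at 62.9, 21.5, 30.4 and 32.2 (N1, N3, N8, N9). *COL4A2* (ENSCAFG00000006069, chromosome 22, 58697166 to 58946371, an interval of 4 listed genes) was at 66.0, 39.0 and 31.997 FPKM (T1, T3, T10), and at 36.7, 16.7, 28.2 and 18.5 (N1, N3, N8, N9). All 3 OSA tumors were above N3, N8 and N9 in both chains, by a small margin over N9 and N8. The log2 fold changes were 0.72 (standard error 0.55; two-sided exact permutation test, p = 0.286) and 0.84 (standard error 0.49; two-sided exact permutation test, p = 0.114). Without T1 these fold changes were 0.28 and 0.55, and neither chain was called in any fit without 1 sample. The neighbouring chains kept a ratio of *COL4A1* to *COL4A2* between 1.08 and 1.74 in all 7 samples, the narrowest of the 14 ratios computed. Of 7 tested endothelial marker genes, *TEK* and *CDH5* were called lower in OSA tumor (28.6%, against 3.58% of all tested genes), 0 were called higher and 5 were not called. Without N1, 3 were called lower (*TEK*, *PECAM1* and *VWF*), against 8.48% of all tested genes, and *CDH5* was not called at a log2 fold change of -2.03, against -2.02 with all samples. The list summed to between 70.0 and 319 FPKM in non-tumor samples and to 91.7, 28.1 and 29.1 FPKM (T1, T3, T10), so the groups overlapped, and its part in the level of these chains was not tested.

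Collagen IV made up a large share of the little collagen that N8 held: basement membrane chains were 29.9% of its collagen FPKM and 14.9% in N9, against 5.06% in N3, 0.762% in N1 and between 1.69% and 7.003% in OSA tumor. Fibrillar chains were 46.5% of the collagen FPKM of N8, 69.6% of N9, 85.4% of N3 and 90.4% of N1. They were 82.3% in T1, where *COL1A1* was listed at 0, 76.9% in T3 and 74.7% in T10. Cartilage type chains were between 4.54% and 6.13% in OSA tumor and between 0.896% and 3.04% in non-tumor samples, so these shares did not overlap. Without *COL1A1* in the collagen sum, a setting added after seeing the data, the shares were 5.55%, 2.46%, 1.01% and 1.71% (N1, N3, N8, N9), against 5.39%, 5.77% and 7.30% (T1, T3, T10), and the groups overlapped. The summed level also overlapped, since 576 FPKM in N1 exceeded 61.4 FPKM in T3 and 248 FPKM in T10.

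**Figure D5:**
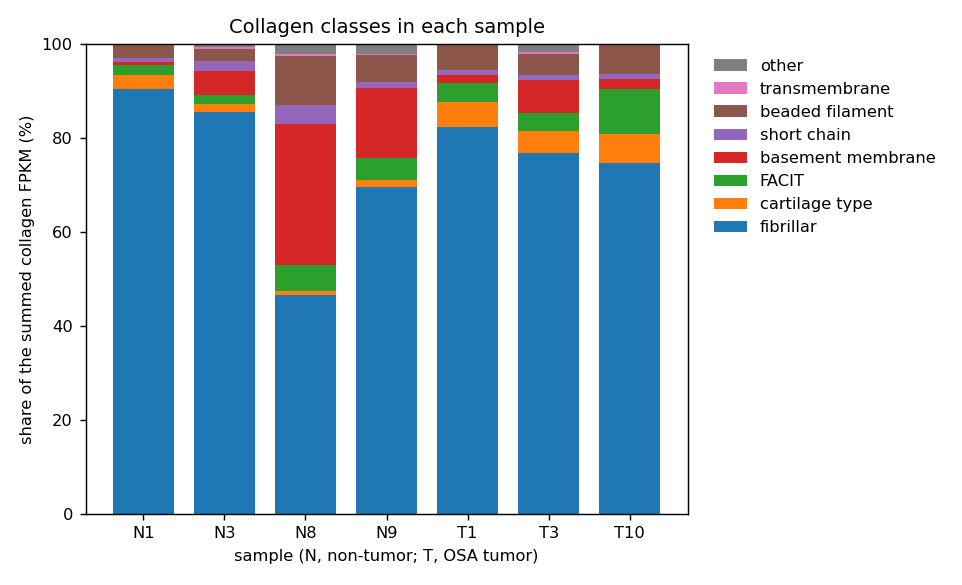
Share of the summed collagen FPKM (vertical axis, %) held by each class of chains in each sample (bars). Fibrillar chains hold between 46.5% (N8) and 90.4% (N1), basement membrane chains hold 29.9% of N8 and 14.9% of N9, and the cartilage type share is between 4.54% and 6.13% in the OSA tumors.

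The other basement membrane chains were lower or at the edge of detection. *COL15A1* and *COL18A1*, found in vessel and muscle basement membranes, were highest in T1, at 49.6 and 46.2 FPKM, and at 20.8 and 21.9 FPKM in N1. Both were at 10.5 FPKM or less in the other 5 samples. *COL4A3* and *COL4A4*, chains of specialised membranes such as the kidney glomerulus, share an interval on chromosome 25 and were at 2.31 and 2.15 FPKM in N9 and at most 0.239 FPKM in every other sample. *COL4A5* did not exceed 1.36 FPKM and *COL4A6* did not exceed 0.252 FPKM. *COL7A1*, the anchoring fibril chain of skin, was at 2.26 FPKM in N1 and 1.75 in T1 and below 1 in the rest.

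The short chain pair of collagen VIII, a network collagen of vessel walls and the cornea, differed in its balance between samples. *COL8A2* (ENSCAFG00000032454, chromosome 15 from 6111123 to 6115608) was at 150, 14.8 and 41.6 FPKM (T1, T3, T10), against 130, 4.80, 3.63 and 1.35 (N1, N3, N8, N9). *COL8A1* (ENSCAFG00000031675, chromosome 33, 6285422 to 6425414, an interval of 2 listed genes) was at 19.3, 1.89 and 2.77 FPKM (T1, T3, T10), against 17.5, 15.2, 5.66 and 4.43 (N1, N3, N8, N9). The log2 fold changes were 2.29 (standard error 1.32) and -0.75 (standard error 0.77), neither called. Within a sample, *COL8A2* was 7.76 times *COL8A1* in T1, 7.80 times in T3 and 15.02 times in T10. The ratio was 7.47 in N1, against 0.317, 0.642 and 0.305 in N3, N8 and N9, and N1 thus lay beside the OSA tumors. This ratio was described after its values were seen and was not tested.

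Transmembrane and other collagens did not exceed 40.2 FPKM in any sample. *COL13A1*, found at cell contacts and the neuromuscular junction, was at 40.2 FPKM in N1, 31.1 in T1 and 10.1 in T10, and at most 2.66 FPKM in the other 4 samples (log2 fold change 1.17, standard error 1.27). *COL23A1* lay between 0.0753 and 3.82 FPKM, and *COL17A1*, the hemidesmosome chain of epithelium, stayed below 1 FPKM in every sample, as did *COL25A1*. *COL26A1* was at 22.9 FPKM in T3 and 5.05 in N3 and at most 1.05 FPKM in the other 5 samples. *COL28A1* (ENSCAFG00000029367, chromosome 14 from 22989822 to 23153321), known from peripheral nerve, was at 9.31 FPKM in N9, 4.31 in N8 and 0.181 in N3, was listed at 0 in N1, and was at most 0.131 FPKM in OSA tumor. Its log2 fold change was -1.43 (standard error 0.85, limma, unadjusted p = 0.125; two-sided exact permutation test, p = 0.229). N8 and N9, the samples with *COL28A1* above 1 FPKM, were also those with the highest muscle genes; the part of muscle tissue in its level was not tested. The 11 chains under the filter had means between 0.00643 and 0.772 FPKM, and the highest single value among them was 2.31 FPKM.

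The levels of most chains spread widely within each group. Of the 32 tested chains, 27 spanned at least a factor of 10 among the OSA tumors, and 26 did so among the non-tumor samples, falling to 13 without N1. T1 was the highest tumor in 24 chains, and T3 the lowest in 21. T3 was highest in 4, among them *COL14A1* and *COL26A1*, and T10 was highest in 4, among them *COL12A1* and *COL9A1*. T1 was within a factor of 2 of N1 in 22 of the 32 chains. The chains in which T1 was at least 5 times N1, leaving out *COL28A1* with N1 listed at 0, were *COL10A1* (32.5 against 0.125 FPKM), *COL2A1* (286 against 22.9 FPKM), *COL9A1* (20.9 against 2.46 FPKM) and *COL9A3* (14.5 against 1.98 FPKM), all of the cartilage type. The remaining cartilage type chains did not share this excess. T1 was below N1 in *COL9A2* (134 against 184 FPKM) and *COL11A2* (180 against 217 FPKM). In *COL11A1* T1 was above N1 but within a factor of 2 (193 against 148 FPKM).

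Genes that modify, process and crosslink collagen were examined beside the chains. Of 35 symbols, 29 were tested; 9 were called higher (31.0%, against 3.28% of all tested genes), 0 were called lower and 20 were not called. The groups did not overlap in 4 (*P4HA1*, *P4HA2*, *PLOD2* and *PPIB*), where OSA tumor was above non-tumor in 3.04% of all tested genes. The prolyl hydroxylases *P4HA1*, *P4HA2* and *P4HA3*, which stabilise the helix, had log2 fold changes of 2.49, 2.34 and 1.72. The lysyl hydroxylase *PLOD2*, which sets the type of crosslink, was at 177, 146 and 418 FPKM (T1, T3, T10), and at 80.7, 19.9, 9.18 and 14.3 (N1, N3, N8, N9). All OSA tumors were above all non-tumor samples (log2 fold change 3.29, standard error 0.75, limma, unadjusted p = 0.0016). The two-sided exact permutation test, which doubles the smaller tail, gave p = 0.0571, the lowest it can give with 35 splits. The crosslinking oxidases *LOX* and *LOXL2* (2.29 and 2.59), the collagen chaperone *SERPINH1* (2.81) and the folding proteins *FKBP14* (2.21) and *PPIB* (2.05) were also called. *P4HA1*, *P4HA2*, *PLOD2* and *LOX* kept their call in each of the 7 fits without 1 sample. The count was 21 without N1 (6.31% of all tested genes), 4 without N8 (1.38%), 5 without T10 (2.21%), 6 without N3 (2.39%) and 16 without N1 and T1 together (6.72%). Of 9 tested collagen receptor genes, 1, the integrin *ITGB1*, was called higher (11.1%, against 3.28% of all tested genes). It was at 145, 236 and 768 FPKM (T1, T3, T10) against 95.8 to 113 FPKM in non-tumor samples. Its log2 fold change was 1.49 with all samples and 1.44 without N1, where it was not called, and 4 others were (*ITGA10*, *ITGA11*, *DDR2* and *MRC2*), against 6.31% of all tested genes.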

How the data were processed

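RNA from 4 non-tumor and 3 OSA tumor samples was sequenced as stranded, paired-end Illumina libraries. Trim Galore for trimming and Tophat2 for alignment (CanFam3.1, Ensembl iGenomes annotation) were run by the authors, who deposited FPKM per gene and sample from Cufflinks/Cuffdiff, without stating versions or library normalization. From the authors' comparison table only the gene intervals (a deposited text column, with 1 added to each start) were used. Its group FPKM, fold changes and p-values were not used. All 7 columns were used as deposited.

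The 13507 of 24580 genes whose mean reached 1 FPKM were fitted as log2(FPKM + 1) with limma 3.58.1 in R 4.3.3 with a mean-variance trend, and Benjamini-Hochberg adjustment ran over all of them. Fold changes on this scale understate those of low genes. A call needs a log2 fold change of 1 or more in size and p under 0.05, the limits of the study. Exact permutation tests took the 35 splits in Python 3.11.15 with scipy 1.17.1. The fit was tested on simulated data. Replicates were compared as separate samples. If some share a dog, p-values measure the spread between samples only. The chains, classes and gene lists were chosen with earlier results of these data known. Values in every sample were fixed for called chains, the top 2 of each class and chains at 0 beside a partner at 10 FPKM or more. Those of other chains were added after they were seen.

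Alternatives were pseudocounts of 0.1 and 0.01, no filter, at least 1 FPKM in 3 samples, 3 scalings, no trend, sample weights, the sample number as a block, zeros beside a partner as missing, and each sample left out. Marker lists for adipocyte, pericyte and smooth muscle, osteoclast, and fibroblast and tendon were also compared.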

Additional observations from a re-analysis of the deposited data

Results flagged for a closer look

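In *COL6A1*, N1 stood apart from the other non-tumor samples in log2(FPKM + 1): its gap to the next sample was 0.924 of the range of the group. In *COL27A1* this share was 0.848, again with N1 high. A gap as large as that of *COL27A1* arises by chance in about 1 in 20 groups, and a larger gap less often. In all, 32 chains were examined.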

How the results depend on the processing

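The median log2 fold change of the tested chains stayed above 0 under every alternative, from 0.34 without T1 to 1.83 without T3. The number of chains called higher, 0 with all 7 samples as deposited, was 1 of 29 when 3 samples had to reach 1 FPKM (3.45%, against 3.72% of all tested genes), 3 with the FPKM rescaled to the same sum (9.38%, against 2.01%), 1 with quantile normalization (3.12%, against 3.69%) and 5 with sample weights (15.6%, against 6.12%); it ran from 0 to 13 with 1 sample left out, and was 5 without N1 and T1, a setting added after seeing the data. Those called lower ran from 0 to 2, and were 1 without N1 and T1. Synthesis and crosslinking genes called higher were 17 with sample weights, ran from 4 to 21 with 1 sample left out and were 16 without N1 and T1; 0 were called lower in any fit. Rescaling moved the all-gene median from -0.02 to 0.12.

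With the replicate block, *COL2A1* was the 1 chain called higher, with the sample number fixed (samples numbered 1 and 3 alone, 3.32) or random (3.01), against 1.05% and 3.95% of all tested genes, and 3 synthesis genes were called with the fixed block. The deviations of N1 and T1 from their groups correlated at 0.422 and those of N3 and T3 at 0.211, but no source says that a number marks 1 dog. Under the fixed block, which leaves out N8, N9 and T10, 6 of the 32 tested chains reversed: *COL11A2* (-0.30), *COL13A1* (-0.50), *COL24A1* (-0.34), *COL27A1* (-0.38), *COL21A1* (-0.04) and *COL5A3* (0.15). Chains that kept their sign at another size included *COL1A2* at 0.12, *COL11A1* at 0.63, *COL12A1* at 0.82, *COL5A1* at 0.35, *COL28A1* at -0.02 and *COL1A1* at -6.51. *COL1A1* reversed to 0.67 with its zero in T1 missing and to 2.33 without N1 and T1, where *COL3A1* was at -0.44. With 1 sample left out, *COL1A1* ran from -4.00 to 0.67, *COL3A1* from -1.80 to 3.25, *COL5A2* from -1.15 to 2.84, *COL26A1* from -0.33 to 1.82 and *COL9A3* from -0.36 to 1.61; the cause was not tested. Chains called in some of these fits ran from 1.25 to 3.71 (*COL1A2*), 2.21 to 4.53 (*COL11A1*), 1.57 to 3.65 (*COL9A1*), 1.04 to 3.31 (*COL6A1*) and 1.44 to 3.55 (*COL8A2*), without a change of sign. Of 458 values of 23 chains under an alternative, 408 kept direction and call whatever their size, 37 gained a call and 13 reversed.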

Other observations

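The osteoclast list, genes of bone resorption such as *CTSK* and *ACP5*, had 0 of 6 tested genes called in either direction, against 6.86% of all tested genes. Its summed levels were 182 to 1614 FPKM in non-tumor samples and 458 to 3369 FPKM in OSA tumor. N1 and T1 were again the highest of their groups. All 4 tested adipocyte genes were called lower in OSA tumor, against 3.58% of all tested genes. Their list summed to 29.3 FPKM in N1, below 44.6 FPKM in T10, so the sums overlapped. In the pericyte and smooth muscle list 0 of 5 tested genes were called, against 6.86% of all tested genes. In the fibroblast and tendon list the matrix gene *FBLN1* was called higher and the tendon gene *THBS4* lower. Each was 14.3% of the 7 tested, against 3.28% and 3.58% of all tested genes. The summed level was highest in T10, at 7351 FPKM, mostly from *LUM* (3925 FPKM) and *DCN* (3270 FPKM). *TNMD* was also highest in T10 (15.4 FPKM), but *FMOD* was the lowest of all samples there (1.83 FPKM) and *FBLN1* the lowest of the OSA tumors (92.7 FPKM). T10 was the sample in which *COL3A1* and *COL5A2* were lowest. Of the skeletal muscle list 14 of 16 tested genes, and of the erythroid list 6 of 8, were called lower in OSA tumor.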
